A study of Mus musculus with 72 samples.

Results

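The 9 thermogenic adipocyte genes Ucp1, Cidea, Elovl3, Dio2, Ppargc1a, Ppargc1b, Prdm16, Adrb3 and Adrb1 were followed in epididymal white adipose tissue (eWAT), the fat depot beside the testis, with liver and pituitary for reference. They were found by their Ensembl identifiers among the 55416 genes of the count table, and all 9 were present. RNA of 24 male mice of the FVB.129P2 background had been sequenced in the 3 tissues, with 6 mice in each of 4 groups. FED-CTRL and FED-HFD mice were sons of dams that ate freely, and CR20-CTRL and CR20-HFD mice were sons of dams given 20% less food from embryonic day 15 until weaning on postnatal day 21. From 8 weeks of age, CTRL mice ate a diet with 10% fat and HFD mice one with 45% fat. The study's results give 10 weeks for the sequenced males. Its methods and the labels also name a longer time, which the results give for further mice. The labels name maternal feeding and diet as the differences between the groups, and no transgene or deletion is named for any of them. Differences between litters or cohorts cannot be told apart from those of maternal feeding. The litters are not given, so brothers may stand in one group as separate mice, and a p-value measures only the spread between these mice. The comparisons ask whether the high fat diet moved these genes, and whether maternal restriction altered the level or that response.

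Thermogenic adipocytes burn fuel as heat. In cold or after feeding, noradrenaline from sympathetic nerves acts on the beta-adrenergic receptors of the cell, cyclic AMP rises, and protein kinase A then starts lipolysis and transcription. The coactivator encoded by Ppargc1a and the transcriptional regulator encoded by Prdm16 drive mitochondrial and brown fat genes, and the uncoupling protein encoded by Ucp1 lets protons return across the inner mitochondrial membrane without making ATP. The epididymal depot is classical white fat, in which cells that express Ucp1 are rare.

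The sequences before Ucp1, Dio2 and Ppargc1a are shown because the first pair were called higher in FED-HFD mice below while Ppargc1a, a textbook cyclic AMP target, was not. They run 5′ to 3′ from 250 bases before to 50 bases after the RefSeq start, on the build GRCm38.p6, and lie at chr8:83290098-83290397 on the + strand for Ucp1, chr12:90738989-90739288 on the - strand for Dio2 and chr5:51567676-51567975 on the - strand for Ppargc1a. Capitals mark the cyclic AMP response element TGACGTCA, its half-site TGACG or CGTCA, which also lies within the full element, and the TATA box TATAAA, searched on both strands.
Ucp1: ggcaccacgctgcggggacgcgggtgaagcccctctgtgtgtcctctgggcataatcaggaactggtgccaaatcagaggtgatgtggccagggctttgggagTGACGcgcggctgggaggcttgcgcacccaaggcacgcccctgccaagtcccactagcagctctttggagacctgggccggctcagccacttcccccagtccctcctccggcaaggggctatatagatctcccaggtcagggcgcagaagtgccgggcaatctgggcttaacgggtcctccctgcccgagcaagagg
Dio2: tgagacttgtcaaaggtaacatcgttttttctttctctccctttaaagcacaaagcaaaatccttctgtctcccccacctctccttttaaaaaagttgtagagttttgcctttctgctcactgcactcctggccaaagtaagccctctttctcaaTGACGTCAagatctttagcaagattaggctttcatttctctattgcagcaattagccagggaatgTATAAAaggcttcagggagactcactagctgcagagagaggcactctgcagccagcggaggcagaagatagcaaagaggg
Ppargc1a: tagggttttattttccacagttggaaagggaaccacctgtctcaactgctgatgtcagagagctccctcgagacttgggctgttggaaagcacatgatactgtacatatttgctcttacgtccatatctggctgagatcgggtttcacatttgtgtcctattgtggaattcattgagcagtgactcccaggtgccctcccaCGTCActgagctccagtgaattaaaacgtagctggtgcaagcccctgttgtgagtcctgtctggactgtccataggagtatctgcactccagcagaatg
The full element stood only before Dio2 among the 5 of 9 genes with an entry in the RefSeq table, and in 1.80% of its 32544 promoters. The half-site was found before Ucp1, Dio2, Ppargc1a and Adrb1 but not in the Prdm16 window, and 20.9% of all promoters held it. The TATA box was found before Dio2 only, against 13.6% of all promoters. A match of letters is a description and no evidence of binding.

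Total counts ranged from 11589675 to 22364963 in eWAT, from 9842813 to 19928212 in liver and from 18299494 to 27601208 in pituitary, and 3 counts, taken as the floor of detection, were worth 0.134 to 0.259 CPM (counts scaled by library size) in eWAT. This range reflects the depth of the libraries only. A pair of eWAT libraries stood apart from the others by low adipocyte markers, FED-HFD mouse 23 and CR20-CTRL mouse 5. The 15 measured adipocyte markers summed to 24579 CPM in the former and 33174 CPM in the latter. Epididymis and testis markers reached 133 CPM in CR20-CTRL mouse 4, 51.6 CPM in CR20-CTRL mouse 5 and 26.8 CPM in CR20-HFD mouse 6, and none of these 13 genes passed the filter on low counts. In pituitary, FED-HFD mouse 10 stood apart by brown fat genes, as described below. Fewer cells of a type and less RNA per cell cannot be told apart in such bulk samples.

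The 9 genes differed widely in level. Per length and per library (TPM, counts scaled by exon length and library size), the order of medians over the 24 eWAT libraries was Adrb3 at 497, Cidea at 21.2, Adrb1 at 8.99, Ppargc1b at 3.00, Ppargc1a at 2.59, Prdm16 at 1.46, Elovl3 at 0.853, Ucp1 at 0.491 and Dio2 at 0.221 TPM. Adrb3, the lipolytic beta receptor of the mature white adipocyte, ranged from 54.3 to 883 TPM, so its lowest library lay above the highest library of any other of the 9 genes, Cidea at 36.9 TPM. Neighbours lower in the order overlapped, such as Ppargc1b at 1.27 to 5.58 TPM with Ppargc1a at 0.939 to 12.2 TPM, and Elovl3 at 0.104 to 3.92 TPM with Ucp1 at 0 to 6.83 TPM. Ucp1 had 0 reads in 4 of the 24 eWAT libraries and at least 3 reads in 15, and no eWAT library held more than 60 of its reads. The tissue held the defining adipocyte markers, of which the 15 measured summed to at least 53278 CPM outside the pair named above.

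**Figure D1:**
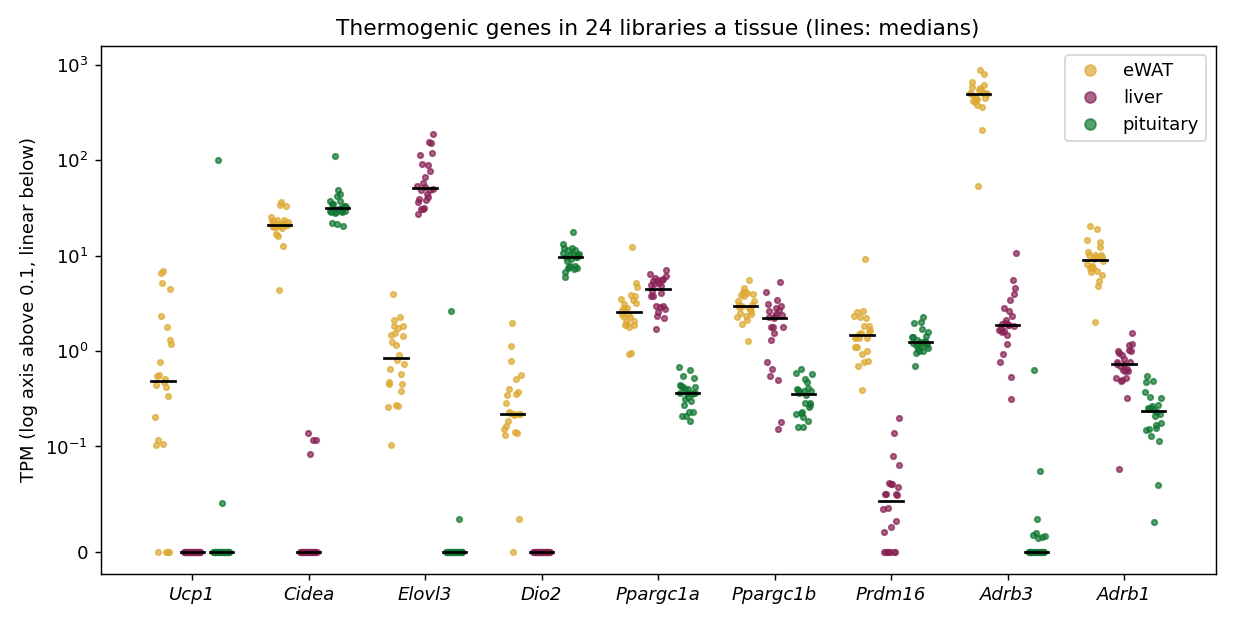
Level of each gene in TPM (log axis above 0.1, linear below) in 24 libraries of eWAT, liver and pituitary, with lines at the medians. Adrb3 led in eWAT at 497 TPM and Elovl3 in liver at 51.7 TPM, while Ucp1 was at 0 in liver and in most pituitary libraries except 1 at 101 TPM.

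Liver and pituitary held other members of the group. Elovl3, which elongates very long chain fatty acids, was the highest of the 9 genes in liver at a median of 51.7 TPM (27.4 to 191), and all 24 liver libraries lay above the highest eWAT library at 3.92 TPM. Cidea, a lipid droplet protein of brown fat, had a median of 31.5 TPM in pituitary and 21.2 TPM in eWAT, with overlapping ranges, and at most 1 read in a liver library. Dio2, the deiodinase that makes active thyroid hormone inside the cell, had 425 to 1198 reads and a median of 9.67 TPM in pituitary, above its highest eWAT level of 1.96 TPM, and 0 reads in all 24 liver libraries. Ucp1 also had 0 reads in every liver library. Liver RNA was extracted with another kit than eWAT and pituitary RNA, and these levels across tissues are given without a test.

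In GRCm39, with GENCODE M39 names, Ucp1 (ENSMUSG00000031710) lies at chr8:84016647-84025085 on the + strand and overlaps no other counted gene. Adrb3 (ENSMUSG00000031489) lies at chr8:27715443-27740925 on the - strand, opposite the gene Gm45470, which held up to 2380 counts. Dio2 (ENSMUSG00000007682) lies at chr12:90691322-90705819 on the - strand, opposite Gm26512 with at most 86 counts. Cidea (ENSMUSG00000024526) lies at chr18:67476317-67501224 on the + strand, opposite B430212C06Rik with at most 158 counts, and Ppargc1b (ENSMUSG00000033871) lies at chr18:61431195-61533735 on the - strand. Elovl3 (ENSMUSG00000038754) lies at chr19:46119917-46124133 on the + strand and meets Pitx3 of the opposite strand, with at most 9 counts, and Adrb1 (ENSMUSG00000035283) lies at chr19:56710631-56721545 on the + strand. Ppargc1a (ENSMUSG00000029167) lies at chr5:51611592-51725068 and Prdm16 (ENSMUSG00000039410) at chr4:154400581-154721625, both on the - strand, and the genes that overlap them or Ppargc1b held at most 9 counts. All are protein coding, and a count covers the exons of the whole gene. The library kits named by the study keep the strand, but the strand setting of the counting is not given in the sources used here. The values of genes with an antisense partner are uncertain to that extent.

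In eWAT of FED mice on the high fat diet, 3 of the 9 genes were called. Ucp1, Dio2 and Elovl3 passed the threshold of an adjusted p-value below 0.055 and a log2 fold change (log2FC) of at least 0.58 in size, all of them higher in FED-HFD than in FED-CTRL, and none of the other 6 genes did. Over all 15964 genes tested in this comparison 8.01% were called, against 3 of 9 here. The median log2FC was -0.40 over the 9 genes and -0.00164 over all genes, with 4 of the 9 genes above 0 and 5 below, none of the latter called. Ucp1 was called in each of the 12 fits that left out 1 mouse of these groups, unlike Dio2 and Elovl3. The 3 called genes have low counts and passed the filter on low counts largely through the FED-HFD libraries, where they were high, so the count of 3 is a description only. Under a filter of over 1 CPM in 6 libraries none of the 3 was tested, and with only the groups compared in the fit Ucp1 and Dio2 were not tested.

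Ucp1 gave 0 to 5 reads per library in FED-CTRL, a total of 13 over the 6 mice, and 4 to 60 reads in FED-HFD, a total of 180. As TMM-scaled CPM this was 0 at the lowest, 0.0709 at the median and 0.243 at the highest in FED-CTRL, and 0.253, 1.54 and 2.85 in FED-HFD. The groups did not overlap, though FED-HFD mouse 40 at 0.253 CPM stood just above FED-CTRL mouse 16 at 0.243 CPM. The share of all genes without overlap was not counted, so nothing is read from this. The log2FC was 3.80 ± 0.95 (SE, n = 6 per group, edgeR quasi-likelihood test, adjusted p = 0.0128), and the exact two-sided permutation test of mean log2 CPM gave p = 0.00216, the smallest that 6 against 6 mice can give. With 4 of 6 FED-CTRL libraries under the floor of 3 reads, the size of this fold change is uncertain. Ucp1 also passed the filter largely through the FED-HFD libraries, where it was high, so these values are a description only.

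Dio2 stood at 0.199, 0.262 and 0.505 CPM in FED-CTRL (lowest, median, highest) and at 0.321, 0.869 and 2.61 CPM in FED-HFD, which is 4 to 57 reads. The groups overlapped, with FED-HFD mice 10 and 11 within the FED-CTRL range. Its log2FC was 1.81 ± 0.57 (edgeR adjusted p = 0.0429, exact permutation p = 0.0238). Without FED-HFD mouse 23, the library with the highest Dio2, the log2FC was 1.33 and the call was lost (edgeR adjusted p = 0.198).

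Elovl3 was measured with 1 to 15 reads in FED-CTRL and 12 to 24 reads in FED-HFD. Its CPM was 0.0561, 0.237 and 0.758 in FED-CTRL and 0.550, 0.831 and 2.02 in FED-HFD, and 1 FED-CTRL mouse, number 24, lay within the FED-HFD range. The highest value was that of FED-HFD mouse 10, whose summed hepatocyte markers, at 837 CPM, were also the highest of its group. The part of liver RNA in the Elovl3 values was not tested. The log2FC was 1.70 ± 0.55 (edgeR adjusted p = 0.0487, exact permutation p = 0.00866). This call lay close to the threshold: it was lost when any of 10 of the 12 mice was left out, and the log2FC was 1.40 to 2.23 over all 12 fits that left out 1 mouse, while the Dio2 call was lost with 8 of the 12.

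The other 6 genes were not called. Adrb1, the beta receptor shared with the heart, had 5.66, 8.04 and 16.3 CPM in FED-CTRL and 1.42, 5.73 and 6.44 CPM in FED-HFD (log2FC -0.87 ± 0.36, edgeR adjusted p = 0.127). Adrb3 had 534, 667 and 850 CPM in FED-CTRL and 64.4, 536 and 603 CPM in FED-HFD (log2FC -0.58 ± 0.36, edgeR adjusted p = 0.330). The FED-HFD mice other than 23 lay between 479 and 603 CPM, near the low end of FED-CTRL, and mouse 23 stood alone below them. Cidea stood at 10.1, 11.4 and 13.2 CPM against 2.02, 9.5 and 11.7 CPM (log2FC -0.44 ± 0.30, edgeR adjusted p = 0.381). Ppargc1a, the inducible coactivator of mitochondrial biogenesis, stood at 3.85, 4.48 and 5.67 CPM against 1.38, 3.21 and 4.50 CPM (log2FC -0.54 ± 0.38, edgeR adjusted p = 0.392).

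The single-gene exact permutation tests, which weigh all mice alike and are not adjusted over the 9 genes, gave p = 0.0173 for Adrb1, 0.00866 for Adrb3, 0.0455 for Cidea and 0.0108 for Ppargc1a. In the fit across all genes the unadjusted edgeR p was 0.0242 for Adrb1, 0.124 for Adrb3, 0.161 for Cidea and 0.169 for Ppargc1a, so only Adrb1 lay under 0.05 in both, and none was called after adjustment. Ppargc1b, the less inducible relative of Ppargc1a, had a log2FC of 0.20 ± 0.23 and Prdm16, which marks brown and beige identity, one of -0.40 ± 0.44, with exact permutation p = 0.424 and 0.288. Without mouse 23 the log2FC of Adrb3 was -0.35, that of Cidea -0.23 and that of Adrb1 -0.67.

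**Figure D2:**
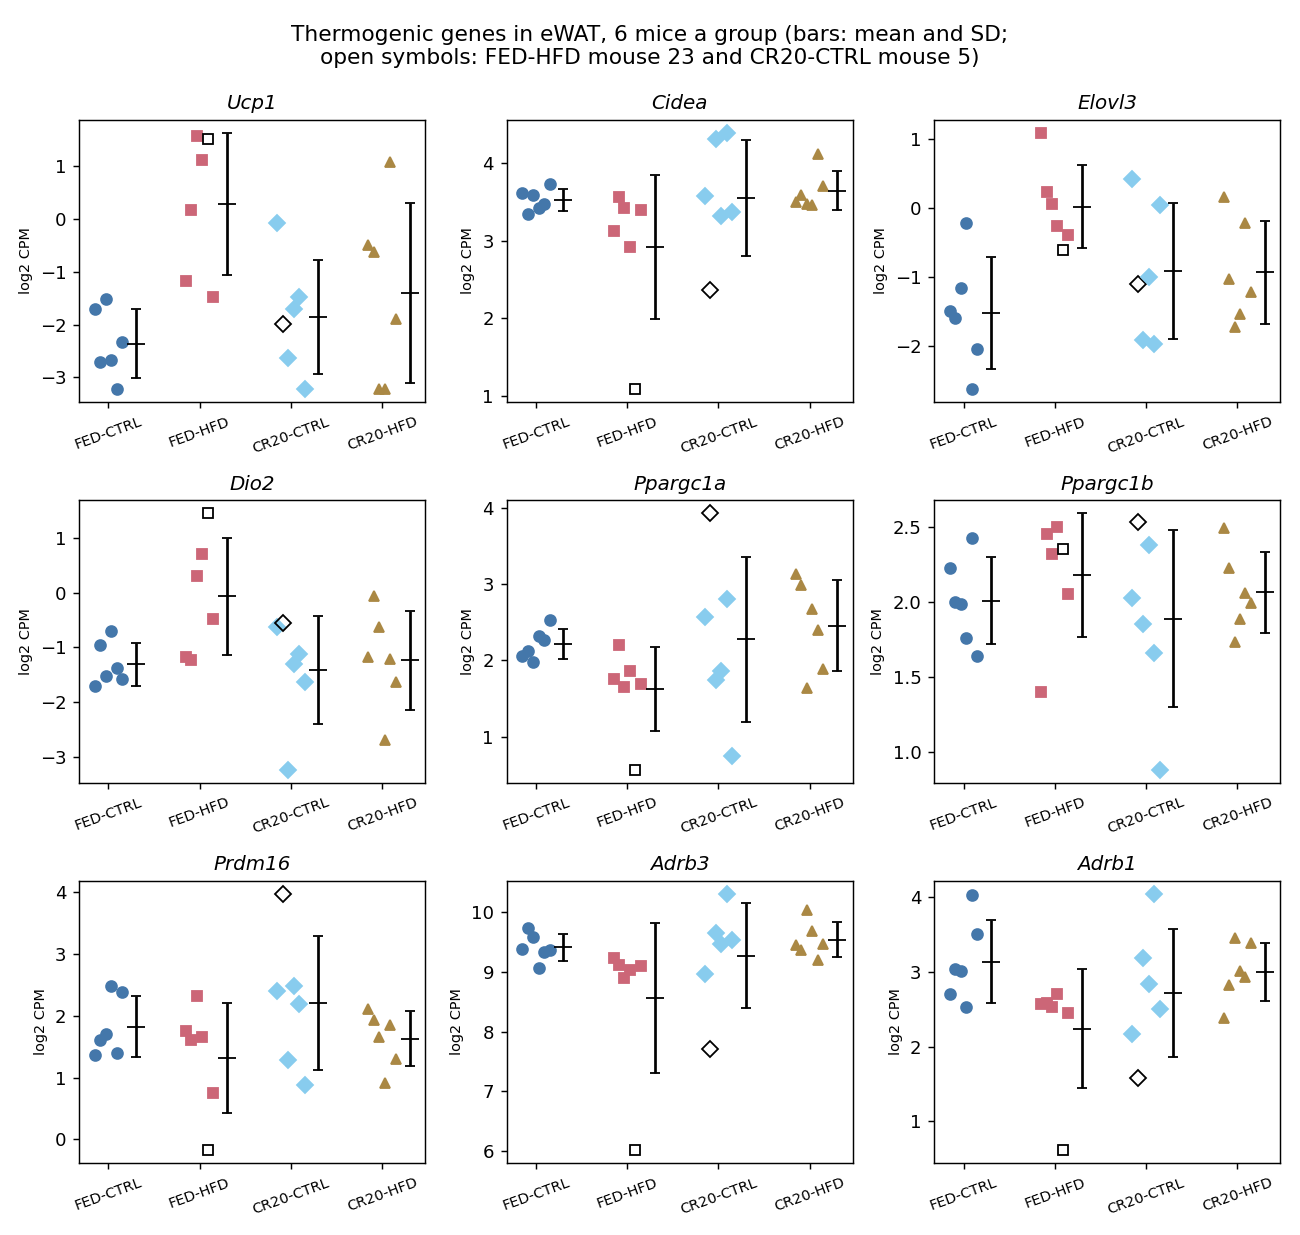
Log2 CPM of the 9 genes in eWAT of 6 mice per group, with mean and SD as bars and FED-HFD mouse 23 and CR20-CTRL mouse 5 as open symbols. Ucp1 of FED-HFD lies wholly above FED-CTRL, and mouse 23 is the lowest FED-HFD library for Cidea, Ppargc1a, Prdm16, Adrb3, Adrb1 and Elovl3 and the highest for Dio2.

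Markers of other cell types differed in the same comparison, in which 8.01% of all genes were called. The marker lists too were chosen with earlier results of these data known, so their counts are a description only. Of 12 macrophage markers, 8 rose in FED-HFD against FED-CTRL and none fell, led by Cd68 (log2FC 2.11 ± 0.36, edgeR adjusted p = 0.00297) and Adgre1, a macrophage surface receptor (1.79 ± 0.32, edgeR adjusted p = 0.00297), with Ptprc, the leukocyte marker CD45, at 1.33 ± 0.27 and the Fc receptor gene Fcgr1 at 0.99 ± 0.22. Their summed level was 1665 to 2383 CPM in FED-CTRL and 2373 to 10339 CPM in FED-HFD, the highest in mouse 23. Adipocyte markers summed to 71833 to 81869 CPM in FED-CTRL and to 24579 to 71126 CPM in FED-HFD, with no overlap, although none of the 15 passed the test (1 was called lower without mice 23 and 5). Retn, which encodes resistin, came closest (log2FC -0.99 ± 0.35, edgeR adjusted p = 0.0687). The skeletal muscle markers stayed at 11.4 to 62.9 CPM over all eWAT libraries, and of the 5 tested none was called, with Tnni2 nearest (1.19 ± 0.43, edgeR adjusted p = 0.0761). The part of these cell types in the values of Ucp1, Dio2, Elovl3 and Adrb3 was not tested.

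**Figure D3:**
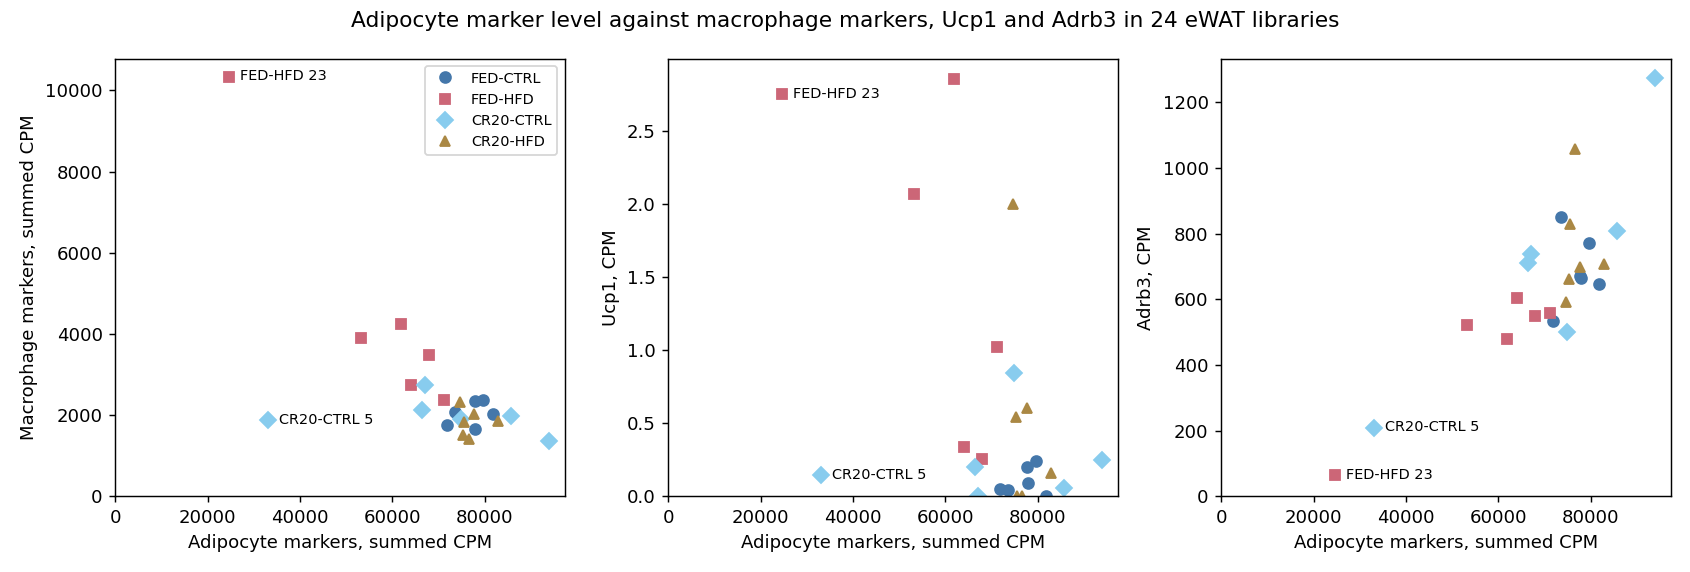
Summed CPM of 15 adipocyte markers (x axis) against the summed CPM of 12 macrophage markers, Ucp1 CPM and Adrb3 CPM (y axes) in the 24 eWAT libraries, by group. FED-HFD mouse 23 combines 24579 CPM of adipocyte markers with 10339 CPM of macrophage markers, and the FED-HFD libraries lie to the left of FED-CTRL in each panel.

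After maternal restriction edgeR called no gene in the same diet contrast. In CR20-HFD against CR20-CTRL, 0 of the 9 genes and 0% of all genes were called (edgeR, 1 of the 9 and 962 of all genes at an unadjusted p under 0.05), and DESeq2 called 1 of all genes, limma voom 0, and both 0 of the 9. Ucp1 had 0, 0.171 and 0.841 CPM in CR20-CTRL and 0, 0.351 and 2.0 CPM in CR20-HFD, with 2 CR20-HFD mice at 0 reads and mouse 45 alone above 1 CPM. Its log2FC was 1.08 ± 0.90 (edgeR adjusted p = 0.945). Dio2 had a log2FC of 0.19 ± 0.62 and Elovl3 one of -0.18 ± 0.55. Prdm16 was the gene with an unadjusted p under 0.05, at a log2FC of -0.91 ± 0.43 (edgeR adjusted p = 0.828), but its CR20-CTRL group ran from 1.74 to 15.6 CPM and the highest value was that of mouse 5. Without mouse 5 and mouse 23 of FED-HFD the log2FC of Prdm16 was -0.32.

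The difference between the diet responses of CR20 and FED mice was tested as an interaction, in which 2.42% of all genes and 0 of the 9 were called (edgeR, 1 of the 9 at an unadjusted p under 0.05, and 0 of the 9 by limma voom and DESeq2). The interaction was -2.72 ± 1.33 for Ucp1 (edgeR adjusted p = 0.277), -1.88 ± 0.78 for Elovl3 (edgeR adjusted p = 0.207) and -1.62 ± 0.84 for Dio2 (edgeR adjusted p = 0.306), each on the log2 scale. A smaller response of these genes in CR20 mice was therefore not shown, and the standard errors leave wide room on both sides of the values. Ucp1, Elovl3 and Dio2 passed the filter on low counts largely through the FED-HFD libraries, so their interaction values are a description only.

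The mice on the high fat diet were also compared directly. In CR20-HFD against FED-HFD, 9.73% of all genes were called and 0 of the 9 (edgeR, 2 of the 9 at an unadjusted p under 0.05), and by DESeq2 1 of the 9 was called, Dio2. Dio2 had 0.0477, 0.330 and 0.849 CPM in CR20-HFD, and its log2FC was -1.55 ± 0.57 (edgeR adjusted p = 0.0683, DESeq2 adjusted p = 0.0485). Ucp1 gave a log2FC of -1.51 ± 0.81 (edgeR adjusted p = 0.213) and Elovl3 one of -1.02 ± 0.53 (edgeR adjusted p = 0.205). Ppargc1a stood at 3.01, 5.74 and 8.67 CPM in CR20-HFD (log2FC 0.87 ± 0.38, edgeR adjusted p = 0.128), and with the range of animal numbers as a covariate it was called (1.09, edgeR adjusted p = 0.0405). Adrb3 at 592, 704 and 1057 CPM in CR20-HFD had a log2FC of 0.71 ± 0.36, Adrb1 one of 0.68 ± 0.36, Cidea one of 0.57 ± 0.30, Prdm16 one of 0.18 ± 0.44 and Ppargc1b one of -0.15 ± 0.23, with edgeR adjusted p-values of 0.189 to 0.823. The exact permutation tests, not adjusted over the genes, gave p = 0.00433 for Adrb3, 0.0195 for Cidea, 0.0195 for Adrb1, 0.0303 for Ppargc1a, 0.0411 for Elovl3, 0.0693 for Dio2 and 0.0952 for Ucp1. This comparison and the first share the FED-HFD mice, mouse 23 among them, so their values are not independent. Ucp1, Dio2 and Elovl3 passed the filter on low counts largely through these FED-HFD libraries, so their values here are a description only.

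In CR20-CTRL against FED-CTRL, 0% of all genes and 0 of the 9 were called (edgeR, 0 of the 9 at an unadjusted p under 0.05, and 0 of the 9 by limma voom and DESeq2). The log2FC values of the 9 genes ran from -0.29 for Adrb1 to 1.21 ± 1.05 for Ucp1, with a median of 0.18 and exact permutation p-values of 0.273 to 0.974. CR20-CTRL ran from 5.02 to 20.8 CPM for Cidea, 209 to 1273 CPM for Adrb3 and 1.58 to 15.1 CPM for Ppargc1a. Mouse 5 held the lowest Cidea and Adrb3 and the highest Ppargc1a and Prdm16 of that group.

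**Figure D4:**
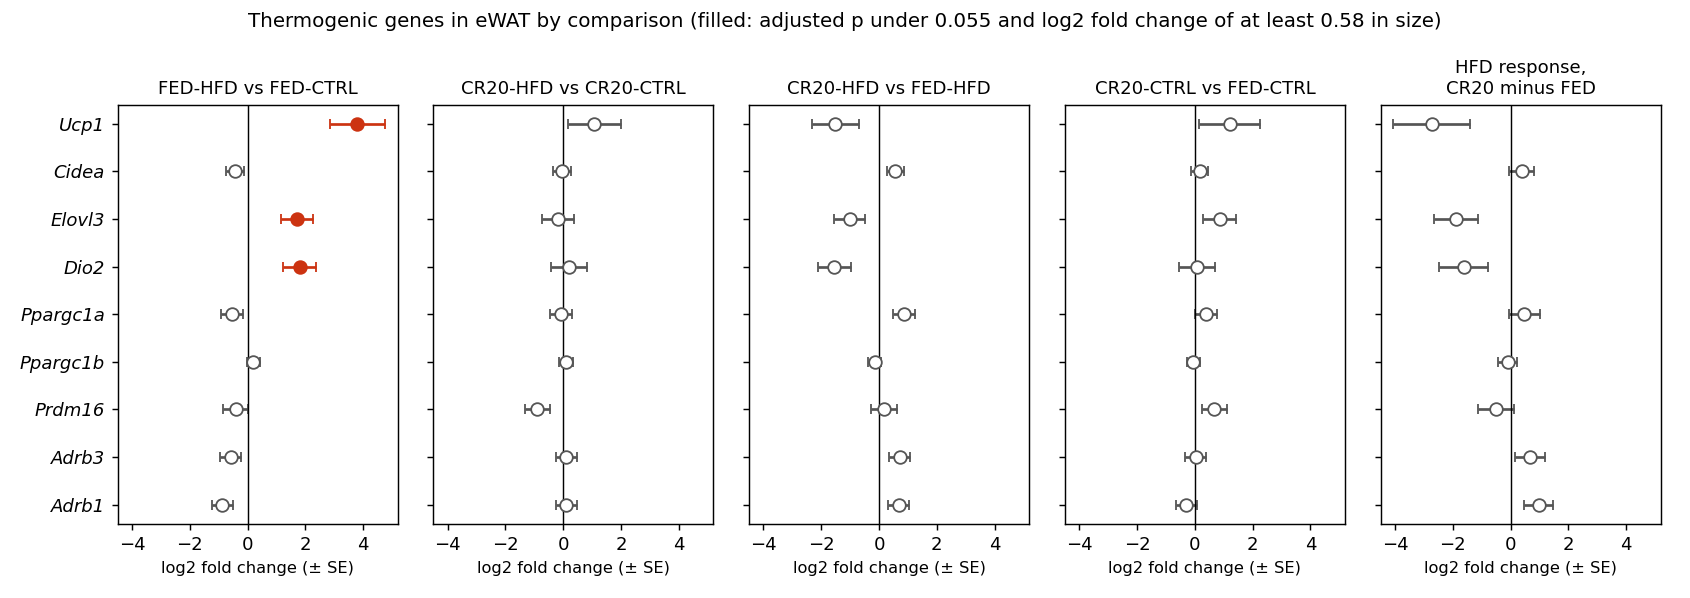
Log2FC with SE of the 9 genes in the 4 eWAT comparisons and for the difference of diet responses (CR20 minus FED), with filled symbols for genes past the threshold. Ucp1 at 3.80, Dio2 at 1.81 and Elovl3 at 1.70 are the filled symbols, all in FED-HFD against FED-CTRL.

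The wider program was read from lists that were chosen with earlier results of these data known. Their counts, here and below, are therefore a description only. Of 24 further effectors and markers of brown or beige fat, 17 were tested, and in FED-HFD against FED-CTRL 4 rose, none fell and 13 were not called, with a median log2FC of 0.33, where 8.01% of all genes were called. Pdk4, which spares glucose by inhibiting pyruvate dehydrogenase, had a log2FC of 1.71 ± 0.25, Otop1, a proton channel enriched in brown fat, one of 2.63 ± 0.58, Epsti1 one of 0.85 ± 0.18 and the nucleoside transporter Slc29a1 one of 0.65 ± 0.19 (edgeR adjusted p = 0.00212 to 0.0290). In CR20-HFD against FED-HFD 1 of the 17 rose and 4 fell, beside 9.73% of all genes called. Ebf2, a transcription factor of brown fat precursors, rose by 0.74 ± 0.20, while Epsti1 (-0.93 ± 0.18), Otop1 (-2.02 ± 0.57) and the thioesterase Acot11 (-1.31 ± 0.40) were among those lower (edgeR adjusted p = 0.00138 to 0.0318). In the interaction, with 2.42% of all genes called, only Acot11 of this list was, at -2.12 ± 0.57 (edgeR adjusted p = 0.0484), and without mice 23 and 5 no gene of the list was.

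Heat cycles that do not need Ucp1 showed calls in the same comparisons, with the same 8.01%, 9.73% and 2.42% of all genes as background. Of 11 tested genes listed for these cycles, 4 rose in FED-HFD against FED-CTRL and none fell. These were Ucp2 (1.06 ± 0.18), Gatm (0.83 ± 0.18), Ckb (1.77 ± 0.41) and Slc6a8 (1.61 ± 0.45), with edgeR adjusted p = 0.00297 to 0.0233. Gatm makes a creatine precursor, Ckb encodes a creatine kinase and Slc6a8 the creatine transporter. Ucp2, also well known in macrophages, is counted as a member of the list, and a part of it in heat production was not tested. In CR20-HFD against FED-HFD 5 of the 11 fell and none rose, among them Gatm (-0.92 ± 0.18), Ucp2 (-0.91 ± 0.18), Ckb (-1.74 ± 0.41) and the calcium channel Ryr2 (-1.39 ± 0.34), with edgeR adjusted p = 0.00189 to 0.00896. In the interaction Gatm (-1.08 ± 0.26), Ckb (-2.27 ± 0.57) and Slc6a8 (-2.37 ± 0.63) were called (edgeR adjusted p = 0.0351 to 0.0466). The list's summed level was highest in FED-HFD mouse 23 at 3604 CPM, the library with the highest macrophage markers, and without mice 23 and 5 the counts were 3 higher in the first comparison, 5 lower in the second and 1 lower in the interaction. The part of macrophages in these values was not tested.

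For signal reception and transcription the counts stand beside the background of 8.01% of all genes called in FED-HFD against FED-CTRL and 9.73% in CR20-HFD against FED-HFD, and nothing is read from them. Of 27 tested genes of adrenergic and cyclic AMP signalling, 1 rose in FED-HFD against FED-CTRL, the beta-arrestin gene Arrb2 (0.61 ± 0.17, edgeR adjusted p = 0.0223), and in CR20-HFD against FED-HFD 2 fell, Arrb2 (-0.61 ± 0.17, edgeR adjusted p = 0.0179) and Maoa, which degrades noradrenaline (-0.62 ± 0.11, edgeR adjusted p = 0.00117). Of 26 activating transcription factors and partners, 1 was called in both, the thyroid hormone receptor gene Thra, lower in FED-HFD (-0.59 ± 0.094, edgeR adjusted p = 0.00297) and higher in CR20-HFD (0.69 ± 0.094, edgeR adjusted p = 0.000522). Of 15 repressors of the thermogenic program, 2 rose in FED-HFD, the kinase gene Ikbke (1.06 ± 0.23, edgeR adjusted p = 0.00527) and Tgfb1 (0.81 ± 0.22, edgeR adjusted p = 0.0222). In CR20-HFD against FED-HFD Ikbke (-1.02 ± 0.23) and Tgfb1 (-0.91 ± 0.22) fell and Twist2 (0.80 ± 0.23) rose (edgeR adjusted p = 0.00420 to 0.0202). Without mice 23 and 5, Thra in FED-HFD and 1 repressor were no longer called in the first comparison and 1 of the signalling genes in the second.

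Other cell types were read in the same way for CR20-HFD against FED-HFD, where 9.73% of all genes were called. The shares were 8.01% in FED-HFD against FED-CTRL and 2.42% in the interaction. Of 12 macrophage markers 9 fell, led by Ptprc (-1.78 ± 0.27), Adgre1 (-2.08 ± 0.32), Cd68 (-2.25 ± 0.36) and Fcgr1 (-1.16 ± 0.22), with edgeR adjusted p = 0.000601 to 0.00148, and 5 were called in the interaction. Without mice 23 and 5 the macrophage counts were 5 higher in FED-HFD against FED-CTRL, 8 lower in CR20-HFD against FED-HFD and 3 in the interaction. Of 15 adipocyte markers 2 rose, the adipsin gene Cfd (1.49 ± 0.43) and Retn (1.02 ± 0.35), with edgeR adjusted p = 0.0226 and 0.0493. Of the 7 mesothelial markers none was called in either comparison, with Msln at -0.82 ± 0.58 in the first and Krt8 at 1.21 ± 0.56 in the second (edgeR adjusted p = 0.394 and 0.152). Of the 5 skeletal muscle markers tested Acta1 rose (1.29 ± 0.40, edgeR adjusted p = 0.0315). Of 7 hepatocyte markers 5 were tested, and Apoa1 (log2FC 6.49 ± 1.74) and Ttr (6.19 ± 1.73) were called higher in FED-HFD than in FED-CTRL, while in CR20-HFD against FED-HFD Cyp2e1 (3.28 ± 0.81) was higher and Apoa1 (-5.60 ± 1.65) and Ttr (-4.97 ± 1.60) were lower in the CR20-HFD group (edgeR adjusted p = 0.00903 to 0.0376). The list summed to 7.29 to 837 CPM in FED-HFD, the highest in mouse 10, and 68.5 to 269 CPM in FED-CTRL, with medians of 67.9 and 167 CPM. The log2 CPM of Apoa1 had an SD of 3.64 over the 6 FED-HFD mice. Mean log2 CPM in FED-CTRL was 7.01 for Cyp2e1 against -1.84 for Apoa1 and -2.15 for Ttr. The sum thus mixes genes of unlike level and direction and is no measure of liver RNA. Without mice 23 and 5 the hepatocyte counts were 3 higher in the first comparison, 1 higher and 4 lower in the second and 1 lower in the interaction. Of the 8 pituitary markers 2 were tested and none was called in eWAT, with Pomc at 0.61 ± 0.41 in the first and Gh at -0.68 ± 0.73 in the second. In the 2 comparisons with 0% of all genes called, none of the 12 lists could hold a call.

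The list genes of smallest p in those comparisons and in the interaction are given as values. In CR20-HFD against CR20-CTRL, Pdk4 stood at 0.90 ± 0.25 (unadjusted p = 0.00135, edgeR adjusted p = 0.789), in the direction it had in FED mice. Bmp7, a secreted inducer of brown fat development, stood at -1.37 ± 0.54, the noradrenaline transporter gene Slc6a2 at 1.27 ± 0.49, the corepressor gene Nrip1 at 0.53 ± 0.20 and Pm20d1 at -0.34 ± 0.19, with edgeR adjusted p = 0.789 to 0.891. Of the marker lists, Ttr stood at -4.41 ± 1.58, Krt8 at -0.89 ± 0.55, Mylpf at 0.58 ± 0.32, Gh at -0.56 ± 0.73, Csf1r at -0.34 ± 0.20 and Pnpla2 at 0.19 ± 0.21. In CR20-CTRL against FED-CTRL, Bmp7 stood at 1.92 ± 0.54 and the glycerol kinase gene Gk at 1.499 ± 0.48 (edgeR adjusted p = 0.253 and 0.312), the receptor gene Adra2a at 1.04 ± 0.44, Slc6a8 at 0.84 ± 0.44 and the channel gene Trpv4 at 0.59 ± 0.22. Of the marker lists, Ttr stood at 5.63 ± 1.71, Krt8 at 1.38 ± 0.56, Gh at 0.73 ± 0.73, Mylpf at -0.42 ± 0.32, Lpl at -0.29 ± 0.16 and Csf1r at 0.15 ± 0.20 (edgeR adjusted p = 0.290 to 0.983). The macrophage calls of the interaction included Adgre1 (-2.12 ± 0.45), Cd68 (-2.33 ± 0.50), Ptprc (-1.66 ± 0.38) and Csf1r (-1.11 ± 0.28), and the hepatocyte calls were Apoa1 (-10.56 ± 2.36) and Ttr (-10.60 ± 2.34), with edgeR adjusted p = 0.0322 to 0.0422. Thra at 0.54 ± 0.13 had an edgeR adjusted p of 0.0378 but missed the size threshold, and Retn (1.05 ± 0.49), Ikbke (-1.06 ± 0.32), Maoa (-0.45 ± 0.16), Msln (0.71 ± 0.81), Gh (-1.41 ± 1.03) and Mylpf (0.85 ± 0.45) were not called.

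Within groups, a few of the 9 genes varied together. After the group means were subtracted, 36 pairs were tested over the 24 eWAT mice by permuting mice within groups 100000 times. Adrb3 and Adrb1 had Pearson r = 0.831 (permutation p = 0.000320, adjusted over the pairs 0.0115) and Spearman rho = 0.676 (permutation p = 0.00100, adjusted 0.0360). Ppargc1a and Prdm16 had r = 0.759 (permutation p = 0.000930, adjusted 0.0167) and rho = 0.634 (permutation p = 0.00200, adjusted 0.0360). Cidea and Adrb1 had r = 0.774 (permutation p = 0.00231, adjusted 0.0277), but rho = 0.543 did not pass (permutation p = 0.0143, adjusted 0.129). In all 3 pairs the mice farthest from the median were FED-HFD 23 and CR20-CTRL 5, and without them r was 0.637, 0.514 and 0.431, with unadjusted permutation p = 0.0161, 0.0386 and 0.134. Adjusted over the 36 pairs with both libraries left out of every pair, p was 0.135, 0.174 and 0.372, and with the 2 farthest mice of each pair left out it was 0.289, 0.354 and 0.354, so none passed. Elovl3 and Adrb1 had r = -0.421 over the 24 mice (permutation p = 0.0622, adjusted 0.224) and r = -0.822 with both libraries left out (permutation p = 4e-05, adjusted 0.00144), a setting chosen after the data were seen, whereas without the 2 mice farthest from the median of this pair, FED-CTRL 41 and FED-HFD 10, r was -0.422 (permutation p = 0.0691, adjusted 0.354). Ucp1 and Dio2 had r = 0.484 (permutation p = 0.0409, adjusted 0.184).

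The genes whose levels over the 24 eWAT libraries were most like each member are given as a description, since all points share depth, group and cell content. By Spearman rho over 15913 named genes, Ucp1 was most like Gng2 (0.882), 2810025M15Rik (0.876) and Igf2bp2 (0.871), Dio2 like Lbh (0.874), Fbxo32 (0.858) and Rab20 (0.826), and Elovl3 like Dnase2a (0.843), Sh3bgrl3 (0.825) and Atf3 (0.824). Cidea was most like the mitochondrial genes Atp5f1b (0.908), Suclg1 (0.878) and Ndufv1 (0.877). Adrb3 was most like Chst1 (0.902), the fatty acid receptor gene Ffar4 (0.865) and Acacb (0.864), and Adrb1 like Gm40761 (0.877), Tmem143 (0.872) and Ccdc80 (0.844). Prdm16 was most like the endothelial genes Aqp1 (0.880) and Gpr182 (0.841) and Pde9a (0.837). Ppargc1a was most like Ntrk2 (0.820) and Ppp1r2 (0.795), and Ppargc1b, with the lowest values of the 9, like Ctdp1 (0.803), Isg20l2 (0.739) and Myh15 (0.737).

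In liver 5 of the 9 genes passed the filter on low counts, Adrb1, Adrb3, Elovl3, Ppargc1a and Ppargc1b, and none was called in any comparison, where 0.109% of all genes were called for FED-HFD against FED-CTRL, 0.522% for CR20-HFD against CR20-CTRL and 0% for the others (edgeR, 2 of the 5 at an unadjusted p under 0.05 in CR20-HFD against CR20-CTRL and 2 in CR20-HFD against FED-HFD). Adrb3 had 0.571, 3.15 and 4.92 CPM in CR20-CTRL and 3.10, 7.06 and 17.7 CPM in CR20-HFD, the highest in mouse 7. Its log2FC was 1.44 ± 0.41 (edgeR adjusted p = 0.146), DESeq2 called it (adjusted p = 0.0403), and without mouse 7 it was 1.01 (edgeR adjusted p = 0.557). Against FED-HFD, at 2.13 to 4.35 CPM, the log2FC of Adrb3 was 1.28 ± 0.41, and that of Elovl3 was 1.04 ± 0.43. Adrb1 was at 0.87 ± 0.34 in CR20-HFD against CR20-CTRL (edgeR adjusted p = 0.400, exact permutation p = 0.00433). Elovl3, abundant in liver, had 23.9, 37.5 and 110 CPM in CR20-CTRL and 28.4, 63.0 and 127 CPM in CR20-HFD (log2FC 0.46 ± 0.42, edgeR adjusted p = 0.704). Ppargc1b had 2.85 CPM at the median in FED-HFD and 4.20 CPM in CR20-HFD, but 0.310 CPM in CR20-HFD mouse 32.

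In pituitary 6 of the 9 genes passed the filter, and none was called in any comparison, as was 0% of all genes (edgeR, 1 of the 6 at an unadjusted p under 0.05 in each comparison with FED-HFD and in the interaction, and 0 of the 6 by limma voom and DESeq2). That gene was Cidea, and it rested on mouse 10 of FED-HFD. Cidea had 27.7, 34.4 and 41.8 CPM in FED-CTRL and 20.7, 34.2 and 136 CPM in FED-HFD (log2FC 0.63 ± 0.27, edgeR adjusted p = 0.444). Without mouse 10 the log2FC was 0.083. For CR20-HFD against FED-HFD it was -0.64 with mouse 10 and -0.093 without. Dio2, which makes the hormone for thyroid feedback there, stayed between 21.3 and 50.2 CPM in all 24 libraries, with log2FC values of -0.030 ± 0.14 for FED-HFD against FED-CTRL and 0.19 ± 0.14 for CR20-CTRL against FED-CTRL. Among the pairwise comparisons Adrb1 had the largest difference, -0.81 ± 0.42 in CR20-CTRL against FED-CTRL (edgeR adjusted p = 0.312), at 1 to 18 reads per library.

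The pituitary library of FED-HFD mouse 10 held 2134 reads of Ucp1, or 107 CPM, while the other 23 pituitary libraries held 0 or 1 read. It also held 65 reads of Elovl3 against at most 1 elsewhere, 39 of Adrb3 against at most 5, 2720 of Cidea against at most 1283, and 41 of Ppargc1b against at most 38. Dio2, Ppargc1a, Prdm16 and Adrb1 lay within the range of the other 23. Among 24 further brown or beige fat genes 8 were highest in this library, such as Cox8b at 56.5 CPM (at most 1.82 elsewhere) and Cox7a1 at 22.5 CPM (at most 2.72), and among 15 adipocyte markers 11 were, such as Adipoq at 14.5 CPM (at most 0.251) and Plin1 at 12.0 CPM (at most 0.400). Of all 16657 genes tested in pituitary, 5.58% were highest in it. The hormone genes Gh and Prl stood at 293918 and 9402 CPM, within the range of the other 23, as did Pomc, Tshb, Cga, Ghrhr and Pou1f1. Fshb, at 484 CPM, lay below the other 23, which held at least 491 CPM. Of the 8 pituitary markers 0 were highest in this library, and of 12 skeletal muscle markers 1 was. The eWAT library of this mouse held 4 reads of Ucp1 beside 33646 of Adipoq, whereas the pituitary library held 2134 beside 290, so Ucp1 was the more abundant in one and Adipoq in the other. Ucp1, Elovl3 and Adrb3 did not pass the filter in pituitary, and where the filter was dropped Ucp1 and Elovl3 were called in FED-HFD against FED-CTRL, where the other 5 FED-HFD libraries held 0 reads of either gene.

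**Figure D5:**
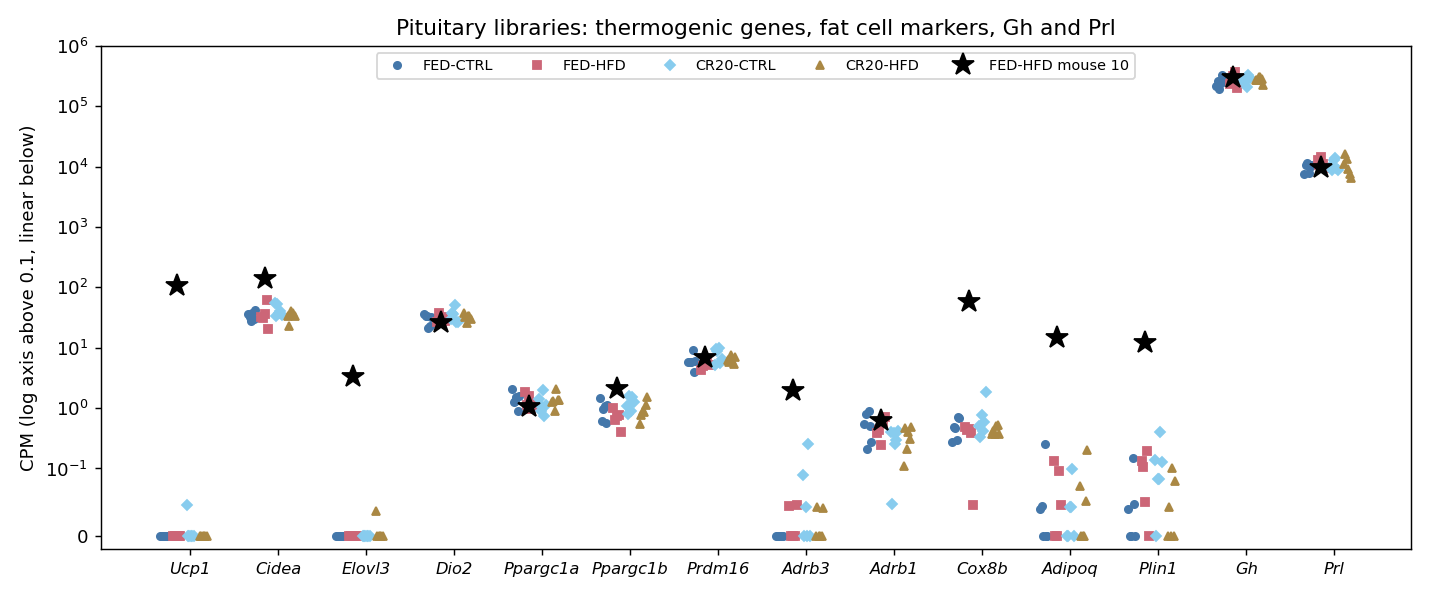
CPM (log axis above 0.1, linear below) of the 9 genes, of the fat genes Cox8b, Adipoq and Plin1 and of the hormone genes Gh and Prl in 24 pituitary libraries, by group, with FED-HFD mouse 10 as a star. The star stands at 107 CPM for Ucp1 and among the other libraries for Dio2, Prdm16, Gh and Prl.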

How the data were processed

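The authors deposited raw read counts per gene. The study's methods name both a stranded total RNA kit and a stranded mRNA kit for the libraries. By the same methods, reads were trimmed with Trimmomatic, aligned with STAR to GRCm39 and counted with featureCounts. Versions and the strand setting are not given in the sources used here. Of 55416 genes, 54749 were named from GENCODE M39 by Ensembl identifier and 667 were not. Liver RNA was extracted with another kit than eWAT and pituitary RNA, so tissues were not tested against each other.

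For each tissue, the 24 libraries were fitted together with a mean per group in edgeR 4.0.16 (R 4.3.3; TMM factors, filterByExpr, quasi-likelihood F test, Benjamini-Hochberg adjustment over all genes tested). A gene was called at an adjusted p below 0.055 and an absolute log2FC of at least 0.58, the study's thresholds, whereas the study's own test was limma voom with quality weights, run here as an alternative (limma 3.58.1) beside DESeq2 1.42.0. SE is the absolute log2FC divided by the square root of F. CPM uses TMM library sizes, log2 CPM a prior count of 2, and TPM the union exon length. Exact two-sided permutation tests compared mean log2 CPM and are not adjusted. The fits and permutation tests were tested on simulated data.

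The 9 genes and the lists were chosen with earlier results of these data known. Text names the 9 genes, up to 4 called genes of smallest p per list and main eWAT comparison (the one of smallest p where none was called), and the 3 genes most like each member. One gene given by this rule is not reported here. Members and list genes in the pituitary library of FED-HFD mouse 10 were named after their values were seen. Of 16 adipocyte markers 15 were matched, Trarp1 not. Leaving out FED-HFD mouse 23 and CR20-CTRL mouse 5 together was chosen after seeing the data.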

Additional observations from a re-analysis of the deposited data

Results flagged for a closer look

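In 86 groups of 6 mice, the highest or lowest log2 CPM was compared with the other 5 by Dixon's gap test, and 11 values stood apart. Chance alone picks about 1 group in 20. The gaps were measured on log2 CPM, while the values below are given as CPM. In eWAT, FED-HFD mouse 23 was the lowest of its group for Cidea at 2.02 CPM (others 7.47 to 11.7), Ppargc1a at 1.38 CPM (others 3.05 to 4.50), Adrb3 at 64.4 CPM (others 479 to 603) and Adrb1 at 1.42 CPM (others 5.36 to 6.44). The same library had the lowest adipocyte and the highest macrophage marker sum of the 24, and the part of either in these values was not tested.

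In pituitary, FED-HFD mouse 10 was the highest of its group for Ucp1 at 107 CPM and Elovl3 at 3.26 CPM, with the other 5 at 0, and for Adrb3 at 1.96 CPM, with the others at most at 0.0451 CPM. Cidea of CR20-HFD mouse 31 was the lowest at 23.3 CPM (others 33.0 to 40.6), and Adrb1 of CR20-CTRL mouse 47 at 0.0478 CPM, which is 1 read (others 0.252 to 0.423). In liver, Ppargc1b of CR20-HFD mouse 32 was the lowest at 0.310 CPM (others 3.04 to 7.93), and Adrb1 of FED-CTRL mouse 41 at 0.0761 CPM, also 1 read (others 0.480 to 0.968).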

How the results depend on the processing

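No paired analysis was possible because the litter of each mouse is not given and the groups compared held different mice. In eWAT FED-HFD against FED-CTRL, the count of 3 called genes was 1 with the animal-number range as covariate and 1 without a filter (Ucp1 in both), 1 with only the groups compared (Elovl3, with Ucp1 and Dio2 not tested) and 0 of 6 tested with over 1 CPM in 6 libraries, where Ucp1, Elovl3 and Dio2 were not tested. Leaving out 1 mouse gave 1 to 3, with Ucp1 called each time, and the count was 1 without FED-CTRL 14, 15, 16, 41 or 42 and without FED-HFD 12, 13 or 23. Dio2 was also lost in limma voom without quality weights (1.49, adjusted p = 0.124) and without mice 23 and 5 (1.33, edgeR adjusted p = 0.148). In CR20-HFD against FED-HFD, the count of 0 was 1 in DESeq2 (Dio2) and 1 with the covariate (Ppargc1a), and leaving out 1 mouse gave 0 to 1: Ucp1 without CR20-HFD 45 (-2.67, edgeR adjusted p = 0.0479) and Dio2 without CR20-HFD 7, FED-HFD 10 or FED-HFD 11. DESeq2 gave 1 in liver CR20-HFD against CR20-CTRL (Adrb3), and no filter gave 2 in pituitary FED-HFD against FED-CTRL (Ucp1 and Elovl3) and 1 in CR20-HFD against FED-HFD (Ucp1).

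Signs turned for log2FC values that were not called. Prdm16 in CR20-HFD against FED-HFD was -0.028 without mice 23 and 5, -0.10 in limma voom with quality weights and -0.016 to 0.43 leaving out 1 mouse. In CR20-HFD against CR20-CTRL, Elovl3 was 0.18 in limma voom with quality weights, and leaving out 1 mouse gave -0.51 to 0.26 for Elovl3, -0.085 to 2.01 for Ucp1 and -0.16 to 0.44 for Dio2. Cidea in CR20-CTRL against FED-CTRL ran from -0.021 to 0.33 leaving out 1 mouse. Over all genes, counts of calls in eWAT ran from 750 to 1542 for FED-HFD against FED-CTRL (656 without FED-HFD 23), from 877 to 1783 for CR20-HFD against FED-HFD (861 without it) and from 0 in limma voom without quality weights to 820 in DESeq2 for the interaction, and DESeq2 called 150 in CR20-CTRL against FED-CTRL. The interaction count was 0 without CR20-CTRL 47 and 722 without FED-HFD 11. In liver they ran from 12 to 52 for FED-HFD against FED-CTRL (4 without FED-HFD 23) and from 12 to 150 for CR20-HFD against CR20-CTRL (31 without CR20-HFD 7), and in pituitary up to 72, with 118 in CR20-CTRL against FED-CTRL without FED-CTRL 42 and 28 in FED-HFD against FED-CTRL without FED-HFD 11. The cause of these changes was not tested beyond the fewer genes or mice in the fit. Depth limits Ucp1, Dio2 and Elovl3 in eWAT, with at most 60 reads per library.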
